A study of Mus musculus with 21 samples.

Results

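Long-read sequencing of mouse gametes and preimplantation embryos gave transcripts that lay wholly inside annotated introns, and 1351 of the 22612 merged transcripts were of this kind. A transcript was counted as intronic when its span fell within 1 intron of a GENCODE vM21 transcript on mm10 and none of its exons touched an annotated exon on either strand. The gene that owned the shortest such intron was called the host, first on the transcript's own strand and otherwise on the opposite one. Of the members, 572 (42.3%, Wilson 95% interval 39.7 to 45.0%) were sense to their host and 779 (57.7%) were antisense, and 62 of the sense members also lay inside an intron of a gene on the other strand. The level of a member was its TPM (a level scaled to the length of the transcript and to the total of the library) in each short-read library, and the level of a host was the summed TPM of the merged transcripts given to that gene.

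The libraries came from DBA/2J sperm of the epididymis, C57/BL6J MII oocytes and ♂DBA/2J x ♀C57/BL6J embryos at the 1-cell, 2-cell, 4-cell, 8-cell and blastocyst stages, with 2 short-read libraries and 1 long-read pool per stage. The protocol text names the males DBA/2N. Females were 3 to 5 weeks old and were superovulated with PMSG and hCG, as were all donors of oocytes and embryos. Oocytes were lysed at 20 h after hCG, and embryos grew in KSOM medium until 24 to 26 h (1-cell), 46 to 48 h (2-cell), 54 to 58 h (4-cell), 68 to 70 h (8-cell) and 94 to 96 h (blastocyst). Each library was a pool of cells made into cDNA by Smart-seq2, which primes on poly(A) or on any run of A. The short reads were unstranded. A sense intronic transcript, an antisense one and unspliced RNA of the host therefore give reads that cannot be told apart by strand, and the strand of a member rests on the long reads alone.

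An intron is copied with every round of transcription of its gene and is normally spliced out and degraded. RNA can still be read from inside it when a promoter within the intron, often in a transposable element, starts a transcript of its own, when a transcript ends early in the intron, or when unspliced RNA is primed at internal runs of A. Early mouse embryos are known for wide transcription of the zygotic genome with inefficient splicing in the 1-cell embryo, and for a burst of retroelement transcripts at the 2-cell stage.

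Some members began where RefSeq places the start of a gene, for all but 1 of them not the host, and windows of 4 such starts are printed to show what lies at the 5′ end of transcripts that vM21 leaves inside an intron. These windows run from 250 bases before to 50 bases after the RefSeq start on GRCm38.p6, 5′ to 3′ on the strand of the gene. Capitals mark CCAAT and GGGCGG, read on both strands, and the last 2 windows hold neither. The first is Gm38958 at chr11:95824362-95824661 on the minus strand, antisense in intron 5 of Zfp652. The others, each on the minus strand, are Gm51896 at chr11:57671001-57671300 in intron 1 of Galnt10, Gm35137 at chr4:98699094-98699393 in intron 16 of Patj, and Gm35676 at chr8:110444342-110444641 in intron 19 of Hydin.
Gm38958: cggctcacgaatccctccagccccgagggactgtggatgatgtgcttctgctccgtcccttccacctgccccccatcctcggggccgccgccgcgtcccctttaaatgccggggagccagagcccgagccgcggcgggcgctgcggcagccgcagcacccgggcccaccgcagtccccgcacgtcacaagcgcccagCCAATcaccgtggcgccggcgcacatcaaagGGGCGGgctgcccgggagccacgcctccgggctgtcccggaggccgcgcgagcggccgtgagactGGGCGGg
Gm51896: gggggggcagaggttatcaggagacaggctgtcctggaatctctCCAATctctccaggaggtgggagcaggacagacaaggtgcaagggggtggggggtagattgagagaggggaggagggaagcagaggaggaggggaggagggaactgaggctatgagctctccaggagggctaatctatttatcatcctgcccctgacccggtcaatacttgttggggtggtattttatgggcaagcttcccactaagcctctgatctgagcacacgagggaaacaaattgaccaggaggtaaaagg
Gm35137: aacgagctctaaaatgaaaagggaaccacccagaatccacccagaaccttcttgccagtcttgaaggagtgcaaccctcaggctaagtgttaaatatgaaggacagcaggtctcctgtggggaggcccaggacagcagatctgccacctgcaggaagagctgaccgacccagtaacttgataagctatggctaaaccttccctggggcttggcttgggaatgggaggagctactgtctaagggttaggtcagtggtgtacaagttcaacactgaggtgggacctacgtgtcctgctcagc
Gm35676: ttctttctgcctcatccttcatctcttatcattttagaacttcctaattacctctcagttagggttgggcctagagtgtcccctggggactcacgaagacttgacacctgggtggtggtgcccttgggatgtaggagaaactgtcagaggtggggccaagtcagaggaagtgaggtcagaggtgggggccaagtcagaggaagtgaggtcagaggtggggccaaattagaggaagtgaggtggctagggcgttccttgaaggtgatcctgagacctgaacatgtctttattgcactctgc

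In all, 18 members began within 300 bases of 15 RefSeq starts on their strand, 4 of them at the very base, and the largest distance was 197 bases. They and the motifs were chosen after values were seen. Of these members 13 were antisense and 5 sense, 14 had long reads in the sperm pool, and 12 had their highest stage mean in sperm. Across the 15 windows CCAAT was found in 7, GGGCGG in 2, the nuclear receptor motif AAGGTCA in 1 and TATAAA in 0. Over the 32851 RefSeq promoter windows of the same length, on both strands, the shares were 37.4%, 35.7%, 4.72% and 13.6% in that order. The windows of the members held a median of 4 CpG, against 7 over all windows. The Gm38958 window held CCAAT and GGGCGG together, with 37 CpG and 74.7% G or C. A match of letters is only a description of the window.

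Intronic transcripts were short and mostly unspliced. The median member was 797 bases long, with quartiles at 354 and 1423. The median was 716 for intergenic transcripts and 1510 for those that matched an annotated intron chain exactly, all of which were spliced. Of the members 1150 (85.1%) had a single exon, against 71.2% of the intergenic transcripts. Splicing was seen in 139 (17.8%) of the antisense and in 62 (10.8%) of the sense members. The antisense member with the most exons had 5 (TCONS_00006478 in intron 5 of Erc2, a scaffold of the presynaptic active zone), and the sense member with the most had 3 (TCONS_00020685 in intron 1 of Nxpe4). In 18 members the span crossed an exon of another annotated transcript that fell inside one of the member's own introns.

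Long introns held these transcripts. The host intron measured 22050 bases at the median, with quartiles at 7757 and 64942.5, and the nearest annotated exon was a median of 2513 bases away, with 390 members closer than 1000 bases. For 584 members (43.2%) the host intron was the first in any annotated transcript of the host that shares it. Intron numbers here are the lowest over such transcripts, and no share over other introns was computed. Hosts were protein-coding for 1129 members and lincRNA genes for 120. There were 1139 hosts, of which 985 held 1 member, and the most members lay in Gm20388 (6) and in Jarid2, Erc2 and Cdh4 (5 each). Most members were seen in the long reads of 1 stage (1141), and 210 in more than 1. Long reads supported the most members in sperm (340, of which 204 antisense) and the fewest in oocytes (130), while the other stages ran from 221 to 243. Each stage had 1 pool, so these numbers have no replicate check.

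Hosts were also looked up in gene lists chosen with earlier results known. Of 40 long-intron neuronal and adhesion genes, 20 held a total of 32 members (11 sense, 21 antisense) in introns with a median length of 200452 bases. Of 40 chromatin regulators Kdm5b, Ino80 and Chd7 held a member, and of 36 maternal and early embryo factors Cnot6l, a subunit of the deadenylase that trims maternal mRNA. The share of all annotated genes that hold a member was not computed. These counts therefore do not say whether a list is rich or poor in hosts.

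Before the levels are compared, libraries that stood apart are given. The summed TPM of 6 markers of the 2-cell embryo (the Zscan4, Tcstv, Zfp352 and Usp17l genes) was 26.2 in the library labelled 2-cell replicate 1 and 447 in replicate 2, against 46.8 and 39.7 in the 1-cell libraries. Tcstv1 weighed most in the 1-cell sums, with 38.3 and 22.5 TPM there and 3.63 TPM in 2-cell replicate 1. Zscan4c, Zscan4d, Tcstv3 and Usp17lc were higher in 2-cell replicate 1 than in both 1-cell libraries. Zfp352 (4.17 TPM) lay between those libraries (2.19 and 11.1 TPM). The gap between the 2-cell libraries was not limited to 2-cell markers. The oocyte list summed to 82.6 in 2-cell replicate 1 and 779 in replicate 2, and the blastocyst list to 22.9 and 87.9. The sperm list (0.419 and 13.1) and the leukocyte and epididymis list (0.775 and 16.8) were lower in replicate 1 too. In the oocytes, the sum of the 2-cell markers was 33.3 in replicate 1 and 4.92 in replicate 2. There, 7 oocyte markers summed to 4554 and 16495. Gdf9 made up most of that sum (4176 and 15568 TPM), and Zp2 alone was lower in replicate 2 (26.0 and 11.2 TPM). In sperm, 6 markers such as the protamines reached 14026 and 20770, but not all in the same direction. Prm1 (1842 and 6156 TPM), Tnp2 and Odf1 were lower in replicate 1, and Prm2 (9070 and 869 TPM), Tnp1 and Akap4 were higher in it. The 4 of 5 leukocyte and epididymis markers that have a merged transcript summed to 6001 in sperm replicate 1 and 677 in replicate 2, mainly Cd52 and Crisp1. The blastocyst list summed to 9563 and 35568 in the blastocyst libraries, mainly Krt8 and Krt18, while Nanog was higher in replicate 1 (73.7 and 30.9 TPM). None of the 6 cumulus and granulosa markers had a merged transcript. The median SD between replicates on the log2(TPM + 1) scale ran from 0.224 at the 4-cell stage to 1.03 at the 2-cell stage. The part of these differences in the results was not tested.

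Intronic transcripts took the largest share of the RNA at the 2-cell stage. The summed TPM of the 1351 members was 9.38% and 12.6% of the total in the 2-cell libraries (10.97% ± 2.25, SD, n = 2). The 1-cell libraries had 5.33% and 5.56%, the 4-cell libraries 4.74% and 7.68%, the 8-cell libraries 4.23% and 2.96%, and the blastocyst libraries 2.26% and 1.83%. Sperm had 4.33% and 6.16%, and the oocytes 3.65% and 0.732%. Both 2-cell libraries were above all others, and both blastocyst libraries were below every other library but oocyte replicate 2. Without the 10 members with the highest TPM the share was 5.80% and 10.4% in the 2-cell libraries, with 5.61% in 4-cell replicate 2 as the next. These sums are given as a description and were not tested. The intergenic transcripts moved alike, from 1.09% in oocyte replicate 2 to 17.9% in 2-cell replicate 2. As in any bulk library, fewer cells that hold a transcript and less of it per cell cannot be told apart.

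**Figure D1:**
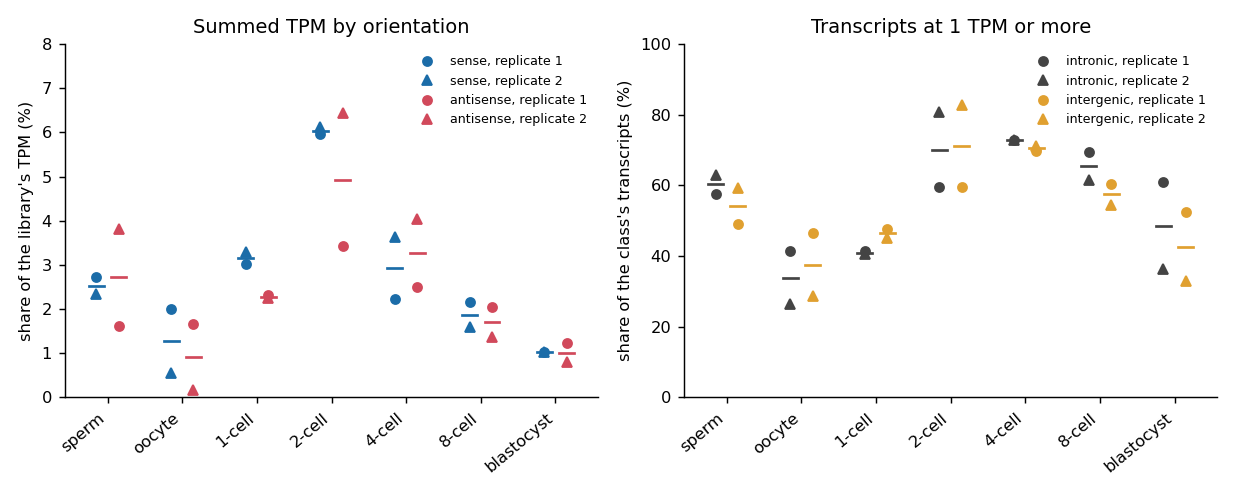
The left panel plots the summed TPM of sense and antisense intronic transcripts as a share of each library (%), and the right panel the share of the 1351 intronic and 2273 intergenic transcripts at 1 TPM or more (%), by stage. Circles are replicate 1, triangles replicate 2 and bars the mean. The sense sum was 5.96% and 6.11% in the 2-cell libraries, above the sum in all other libraries.

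Sense members summed to 5.96% and 6.11% of the TPM in the 2-cell libraries, while antisense members summed to 3.42% and 6.44%. At least 1 TPM was reached by 356 members in oocyte replicate 2, the fewest, and by 1090 in 2-cell replicate 2, the most. The stage with the highest mean TPM was sperm for 452 members (33.5%), the 2-cell stage for 308, the 4-cell stage for 243, the 8-cell stage for 111, the 1-cell stage for 110, the blastocyst for 57 and the oocyte for 56. Among the 201 spliced members it was the 2-cell stage for 73 (36.3%) and sperm for 40 (19.9%).

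A large part of the signal lay in very short transcripts, and some of the members with the highest TPM differed strongly between replicates. The 150 members under 200 bases (11.1%) held between 16.5% (1-cell replicate 1) and 60.3% (blastocyst replicate 2) of the TPM of all members. Their median SD between replicates on the log2(TPM + 1) scale was 1.12 at the 2-cell stage and 0.791 in sperm, against 0.994 and 0.747 for longer members. The gap was larger in oocytes (2.44 against 1.33) and at the 4-cell stage (0.740 against 0.264). In blastocysts the order was reversed (0.835 against 0.925). The study's short reads were 150 bases from each end, so some members were shorter than a single read. Among them are the Camk1d, Chl1 and Lima1 members named here and below. A TPM scaled to length is uncertain for such members, and the part of this in the results was not tested. TCONS_00011733, 75 bases long and sense in intron 3 of Camk1d (a calcium/calmodulin-dependent kinase), had 12888 TPM in 2-cell replicate 1 and 951 TPM in replicate 2. TCONS_00002139, 345 bases in intron 5 of Edar (the ectodysplasin receptor), had 10127 and 595 TPM in the sperm libraries, and antisense TCONS_00017548, 122 bases in intron 3 of Chl1 (a neural adhesion molecule), had 182 and 7942 TPM there. TCONS_00008852, 175 bases in the lincRNA gene Gm26561, had 9186 and 657 TPM at the 2-cell stage. TCONS_00015156, 155 bases in intron 4 of Rint1 (a tether of Golgi vesicles), was highest at the 4-cell stage with 1265 and 3246 TPM, where its host had 33.8 and 32.6 TPM. A steadier one was TCONS_00005809, 217 bases in the lincRNA gene Gm48170 and 182 bases from its exon, with 4462 and 4661 TPM in sperm and 1293 and 1269 TPM at the 4-cell stage. For the first 4 of these the spread between replicates was larger than most of the differences between stage means.

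Pairs of stages were tested with limma, on the log2(TPM + 1) scale, in a fit to all merged transcripts with at least 1 TPM in at least 2 libraries (20250, of which 1161 members), and a transcript was called at a Benjamini-Hochberg adjusted p under 0.05. For transcripts with a low TPM, differences on this scale come out smaller than the true change. From oocyte to 1-cell embryo 110 members rose (9.47% of the members tested), beside 1.92% of all transcripts tested, and 0 fell, beside 0.084% of all. At an unadjusted p under 0.05, 154 were higher and 5 lower. The calls took in 59 of 492 sense members (12.0%) and 51 of 669 antisense members (7.62%). Among sense members they were 13 of 51 spliced (25.5%) and 46 of 441 single-exon ones (10.4%). Among antisense members they were 9 of 118 spliced (7.63%) and 42 of 551 single-exon ones (7.62%). The intergenic transcripts had a like share (9.32%), and the exactly annotated ones 0.537%. These calls rest on the spread shared by all stages. Without oocyte replicate 2 or 1-cell replicate 2 there were 0, without 1-cell replicate 1 there was 1, and in a fit on the 4 libraries of these stages there were 0.

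The transcripts that rose in the 1-cell embryo reached high levels for a short period. The member in intron 1 of Mitf (TCONS_00016927, chr6:97812577-97813971, plus strand, sense, 1395 bases, 5289 bases past the exon), the transcription factor of melanocytes, was at 114 and 27.4 TPM in the oocytes and at 1365 and 1276 TPM in the 1-cell libraries. It had 2459.9 and 1937 TPM at the 2-cell, 253 and 466 TPM at the 4-cell and 0.000159 and 4.16 TPM at the 8-cell stage, and was at 0 in both sperm libraries. The libraries of successive stages did not overlap up to the 8-cell stage. On the log2 scale it rose by 4.53 ± 0.93 (SE; limma adjusted p = 0.023) into the 1-cell embryo and fell by 7.24 ± 0.93 (limma adjusted p = 0.00495) from 4-cell to 8-cell. No merged transcript was given to Mitf itself.

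Antisense members could follow a like course. TCONS_00012924 (chr3:104809186-104810817, plus strand), in intron 1 of Mov10, an RNA helicase that restrains retroelements, had 129.7 and 18.5 TPM in oocytes, 952 and 1038 TPM at the 1-cell, 1267 and 2099.9 TPM at the 2-cell, 489 and 605 TPM at the 4-cell, 14.9 and 18.2 TPM at the 8-cell stage and 1.24 and 0.00903 TPM in blastocysts. Its host was highest late, with 0 in both oocyte libraries, 0.817 and 0.258 TPM at the 1-cell stage, 10.1 and 8.50 TPM at the 4-cell stage and 13.97 and 6.22 TPM in blastocysts. From 4-cell to 8-cell the member fell by 4.96 ± 0.90 and its ratio to the host by 4.81 ± 0.82 on the log2 scale (limma adjusted p = 0.00994 and 0.0408). TCONS_00001380, antisense in intron 2 of Efcab2 (an EF-hand protein of the axoneme), had 343 and 66.3 TPM in oocytes, 702 and 1307 TPM at the 1-cell (a difference of 2.65 ± 0.86, limma adjusted p = 0.23) and 1401 and 2304 TPM at the 2-cell stage, and 6.56 and 9.93 TPM at the 8-cell stage.
From 4-cell to 8-cell it fell by 5.83 ± 0.86 and its ratio to the host fell by 5.88 ± 0.83 (limma adjusted p = 0.00495 and 0.0192), while Efcab2 itself was at 28.5 and 37.1 TPM in sperm and under 6 TPM in the 12 other libraries.

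Antisense TCONS_00001113 in the pseudogene Gm7133 had 266 and 19.7 TPM in oocytes and 1801 and 1420.2 TPM at the 1-cell stage, and fell by 4.86 ± 1.03 from 4-cell to 8-cell (limma adjusted p = 0.0221). The 2 largest rises into the 1-cell embryo were antisense. TCONS_00008299 in intron 3 of Robo1, the receptor for Slit guidance cues, went from 5.53 and 0 TPM to 283 and 278 TPM, a rise of 6.78 ± 1.04 (limma adjusted p = 0.00875), and TCONS_00002856 in intron 1 of the pseudogene Nlrp1c-ps from 24.2 and 5.77 TPM to 724 and 913 TPM, a rise of 5.96 ± 0.83 (limma adjusted p = 0.00875). By the 8-cell stage both were listed at 0 in both libraries. Sense TCONS_00011375 in intron 2 of Sirpa, the macrophage receptor for CD47, had 480.5 and 504 TPM at the 1-cell, 457 and 77.5 TPM at the 2-cell and 0 and 4.73 TPM at the 4-cell stage, where it fell by 6.31 ± 1.02 (limma adjusted p = 0.0177).
Sense TCONS_00021521 in intron 8 of Slc17a5, the lysosomal sialic acid transporter, rose as well and was already lower at the 2-cell stage, with 213 and 217 TPM before and 56.9 and 12.8 TPM after, a fall of 2.94 ± 0.95 (limma adjusted p = 0.0369).

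**Figure D2:**
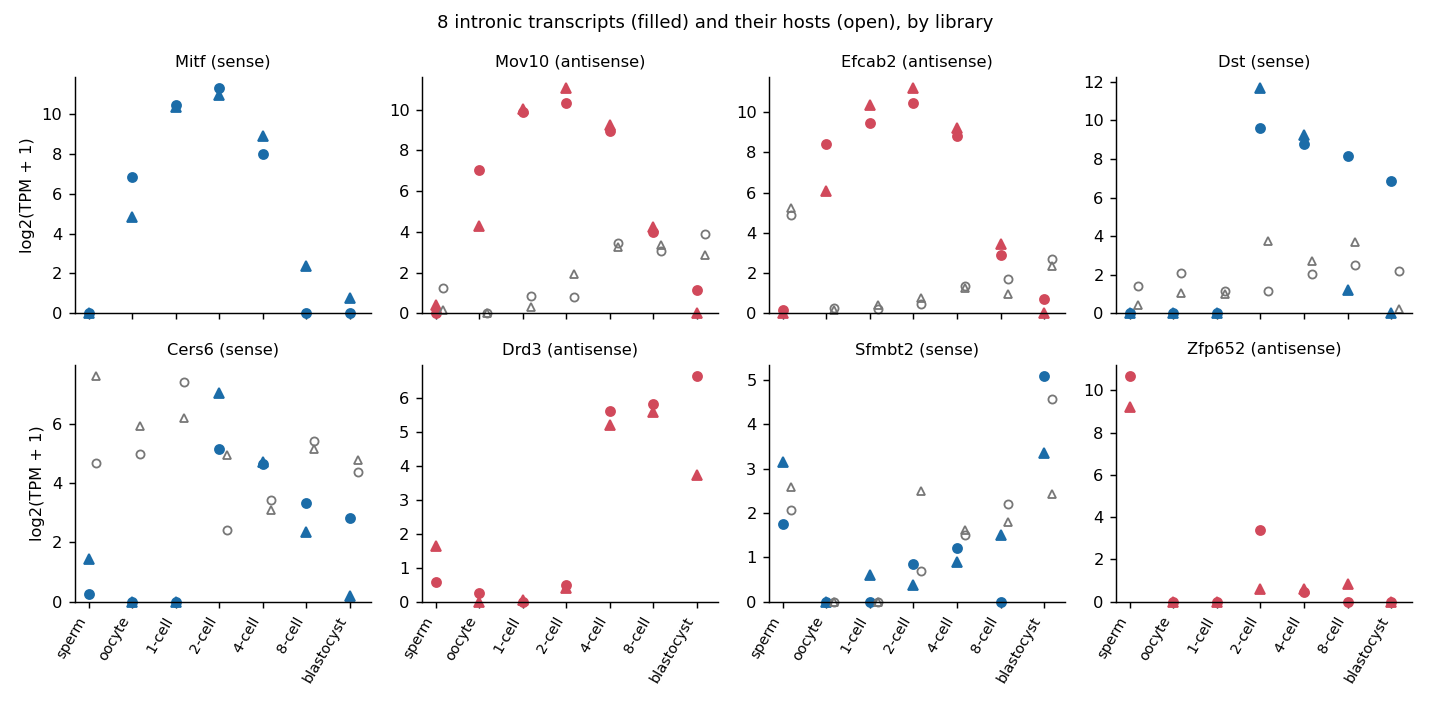
Levels of 8 intronic transcripts, as log2(TPM + 1) on the y axis, in each library of the 7 stages. Filled points are the member (blue sense, red antisense), open grey points its host where a merged transcript was given to it (Mitf, Drd3 and Zfp652 had none), circles replicate 1 and triangles replicate 2. The members in Mitf, Mov10 and Efcab2 peaked at the 2-cell stage and were low by the 8-cell stage.

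Most of the members that rose in the 1-cell embryo fell again before the 8-cell stage. Of the 110, 20 fell between the 2-cell and 4-cell stages, 79 between the 4-cell and 8-cell stages and 93 (84.5%) in either, and these 93 were 78.8% of the 118 members that fell in either. The comparison of oocyte and 1-cell shares no library with the later ones but shares their estimate of the spread. Among intergenic transcripts 152 of 186 did so, among exactly annotated ones 1 of 39, and among all transcripts 264 of 389 (67.9%). The 110 members summed to 0.290% and 0.0491% of the TPM in oocytes, 3.12% and 3.36% in 1-cell, 3.77% and 4.52% in 2-cell, 0.758% and 1.04% in 4-cell and 0.0159% and 0.0185% in 8-cell libraries, and to 0.00948% and 0.0170% in sperm. Of these sums, those of the oocyte and 1-cell libraries follow from how the set was chosen. Long reads of the 1-cell or 2-cell pool supported 97 of the 110 and those of the sperm pool 0. Per the study, the long-read pool of a stage mixed the cDNA batches that also gave its short-read libraries, so this support is not independent. The 110 members had a median length of 1294.5 bases and 22 were spliced.

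**Figure D3:**
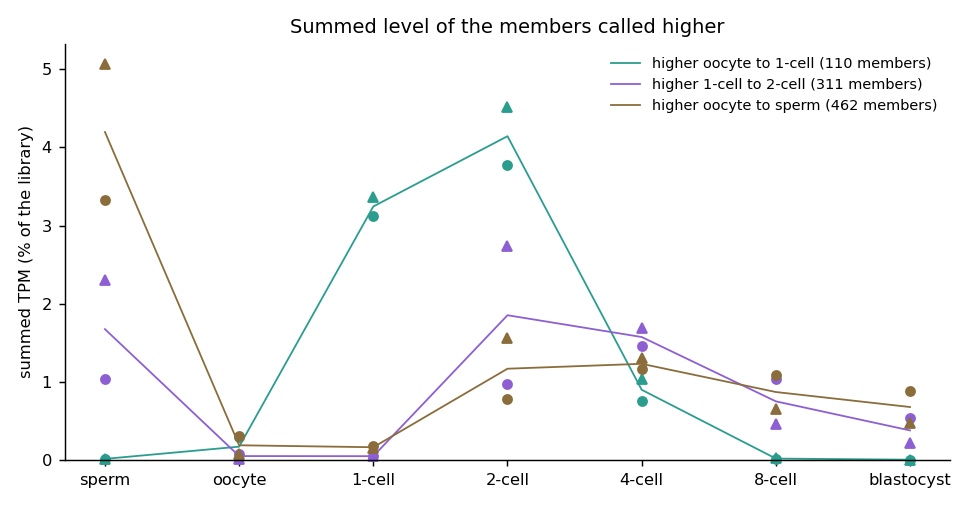
Summed TPM as a share of the library (%), by stage, of the intronic transcripts that were higher in the 1-cell embryo than in oocytes (110), in the 2-cell than in the 1-cell embryo (311) and in sperm than in oocytes (462). Circles are replicate 1, triangles replicate 2 and lines join the means. The first set held 3.12% to 4.52% in the 1-cell and 2-cell libraries and under 0.02% from the 8-cell stage on. The sums of each set at the stages compared to choose it follow from that choice.

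From 1-cell to 2-cell, when the zygotic genome is broadly activated in the mouse, 311 members rose (26.8%), beside 22.9% of all transcripts tested, and 12 fell (1.03%), beside 5.11% of all. The median difference was 1.31 over the members and 0.75 over all transcripts, so that the members were 0.57 above the general shift. Under quantile normalization, which removes that shift, 189 rose and 75 fell. The rise took in 122 of 492 sense members (24.8%) and 189 of 669 antisense members (28.3%), and 28.9% of single-exon against 14.2% of spliced members. The intergenic share was 25.9% and that of exactly annotated transcripts 22.8%. Without the library labelled 2-cell replicate 1, 520 were called (513 higher, 7 lower), and without 2-cell replicate 2, 235 (195 higher, 40 lower). Without 1-cell replicate 1 there were 155 calls and without replicate 2 there were 146, with the spread weighted by stage 130, and in a fit on the 4 libraries 0. The set that rose here summed to 1.04% and 2.31% of the TPM in sperm, 0.0515% and 0.0443% in the 1-cell, 0.969% and 2.73% in the 2-cell, 1.45% and 1.69% in the 4-cell and 0.534% and 0.221% in the blastocyst libraries, of which the 1-cell and 2-cell sums follow from how the set was chosen.

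Several of these members were listed at 0 before the 2-cell stage. TCONS_00000104 (chr1:34083802-34084552, plus strand, sense), in intron 1 of Dst, a linker of the cytoskeleton, was at 0 in both oocyte, both 1-cell and both sperm libraries, at 773 and 3233 TPM at the 2-cell and at 441 and 609 TPM at the 4-cell stage (limma adjusted p = 0.00339 for 1-cell to 2-cell). The summed TPM of Dst was 1.26 and 0.985 at the 1-cell and 1.25 and 12.5 at the 2-cell stage, and the ratio to the host differed (limma adjusted p = 0.0218). Antisense TCONS_00022546, in intron 4 of the X-linked Polycomb gene Scml2, went from 0 in both 1-cell libraries to 442 and 1693 TPM (limma adjusted p = 0.00121). The sense member of Ankrd6, a Wnt pathway protein (TCONS_00014451, intron 1), had 16.1 and 19.3 TPM at the 1-cell and 323 and 839 TPM at the 2-cell stage. It rose by 4.81 ± 0.74 and by 4.76 ± 0.98 relative to its host (limma adjusted p = 0.00108 and 0.0117), and fell by 6.69 ± 0.74 from 4-cell to 8-cell (limma adjusted p = 0.00495).

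A host could fall while the transcript inside it rose. TCONS_00011077 (chr2:68922276-68924058, plus strand, sense) lay in intron 1 of Cers6, a ceramide synthase, and was listed at 0 in both 1-cell libraries and at 34.7 and 129 TPM in the 2-cell libraries. Cers6 had 169.9 and 71.7 TPM at the 1-cell and 4.34 and 29.97 TPM at the 2-cell stage, a fall of 3.12 ± 0.83 (limma adjusted p = 0.0114), and the ratio of member to host changed (limma adjusted p = 0.000988). Antisense TCONS_00015177 in Gm26608 had 0 in both 1-cell libraries, 13.2 and 136 TPM at the 2-cell and 73.8 and 94.8 TPM at the 4-cell stage, while its host fell by 2.09 ± 0.66 from 15.2 and 3.78 to 0.391 and 2.06 TPM (limma adjusted p = 0.0251). Antisense TCONS_00006714 in intron 1 of Gm49164, with 0 in the 1-cell and 241 and 1572 TPM in the 2-cell libraries, had a changed ratio too (limma adjusted p = 0.00201, with the host's own difference at limma adjusted p = 0.0704), but it overlaps the RefSeq pseudogene Cbx3-ps6, whose reads may be shared with near-identical copies, so its level is uncertain. A RefSeq pseudogene was overlapped by 16 members and a transcribed pseudogene by 3. By span and on either strand, 105 members overlapped a RefSeq long noncoding RNA gene with a symbol other than the host's. TCONS_00015177, at Gm35223, was among them. A RefSeq protein-coding gene other than the host was overlapped by 79 members.

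Other hosts rose past their intronic transcript. Kdm5b, an H3K4 demethylase, went from 0.920 and 0.761 to 399 and 77.1 TPM, a rise of 6.59 ± 0.85 (limma adjusted p = 0.000176), while its sense member TCONS_00000467 went from 0.155 and 0.0927 to 1.72 and 2.53 TPM, a rise of 1.46 ± 0.46 (limma adjusted p = 0.0314). The ratio fell by 5.12 ± 0.96 (limma adjusted p = 0.00827). Xpnpep1, an aminopeptidase, rose by 4.18 ± 0.66 (limma adjusted p = 0.00047) while the antisense TCONS_00010374 in its intron 19 had 18.8 and 19.3 TPM before and 23.3 and 15.6 TPM after, a ratio lower by 4.17 ± 0.72 (limma adjusted p = 0.00584). For Senp7, a SUMO protease, the host rose by 3.56 ± 0.83 (limma adjusted p = 0.00533), the antisense member TCONS_00008265 had 18.2 and 17.7 TPM before and 4.19 and 7.59 TPM after (limma adjusted p = 0.221), and the ratio fell by 5.06 ± 1.00 (limma adjusted p = 0.0103).
The spliced sense member of Bmpr1b, a BMP receptor (TCONS_00013565), fell with its host, by 3.26 ± 0.90 and 2.36 ± 0.78 (limma adjusted p = 0.0186 and 0.0327), and the ratio to the host differed by -0.91 ± 1.05 (limma adjusted p = 0.611).

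Over all members with a host in the data, the levels of member and host were weakly correlated. A host had TPM of its own for 644 members (255 sense, 389 antisense). Across these, Pearson's r between the levels of member and host, on the log2(TPM + 1) scale, was between 0.0247 in oocytes and 0.206 at the 8-cell stage, a description across transcripts that share the same libraries and, in part, hosts. The r between their changes, over 534 pairs, was -0.0043 for the step into the 1-cell embryo, 0.109 for that into the 2-cell, 0.275 into the 4-cell and 0.0787 into the 8-cell embryo. For the step into the blastocyst it was 0.305, with 0.424 for sense and 0.2105 for antisense members. Of the 137 members that rose from 1-cell to 2-cell with a tested host, the host rose in 33 (beside 26.1% of all genes), fell in 5 (beside 6.2% of all) and was not called in 99. Of the 30 with a tested host that fell from 4-cell to 8-cell, limma called the host in 0, with 6 at an unadjusted p under 0.05, beside 0.769% of all genes higher and 0.889% lower. Of the 30 that rose into the 1-cell embryo the host was also called in 0, with 4 at an unadjusted p under 0.05, beside 0.33% and 0.0499% of all genes by limma. These host counts were close to the shares over all genes. By stage means, the share of members over 1 TPM whose host was under 1 TPM lay between 7.72% at the 2-cell stage and 17.8% in oocytes.

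**Figure D4:**
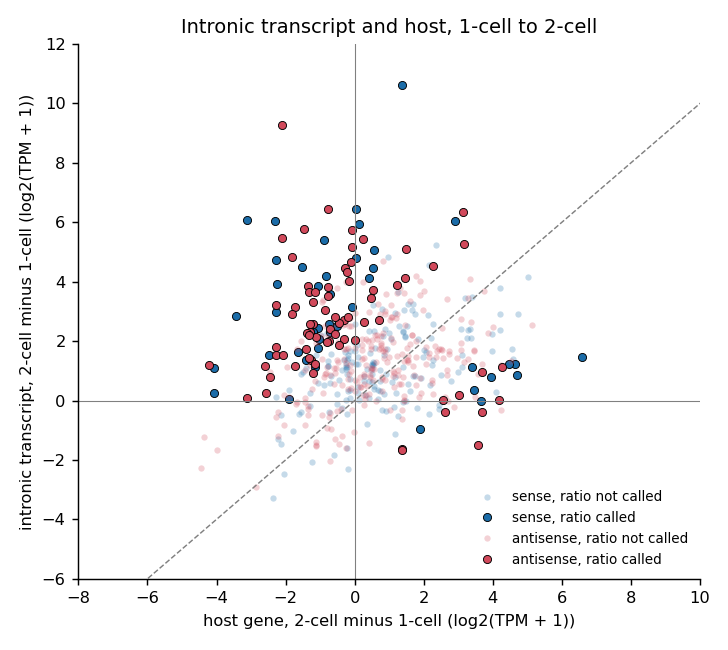
Difference from 1-cell to 2-cell on the log2(TPM + 1) scale of 534 intronic transcripts (y axis) against that of their host gene (x axis). Blue is sense, red antisense, points with a black edge had a called ratio of member to host, and the dashed line is equal change. In 281 both values were above 0, and in 172 the member was above and the host below 0.

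The ratio of a transcript to the rest of its gene was tested over 10998 transcripts, 534 of them members. Transcripts that are no members are set against each other within a gene, so their rises and falls tend to balance. Members are only set against a host sum that leaves them out. The shares over all are therefore not a like comparison for the direction of the members. From 1-cell to 2-cell the ratio rose for 98 members (18.4%), beside 8.03% of all, and fell for 19 (3.56%), beside 8.12% of all. Of these, 34 of 213 sense members and 64 of 321 antisense members rose. Without 1-cell replicate 1 there were 37 calls in all and without replicate 2 there were 45, with the spread weighted by stage 46 and in a fit on the 4 libraries 1. From 4-cell to 8-cell it fell for 16 (3.00%), 14 of them antisense, beside 0.264% of all, and rose for 0, beside 0.236% of all, with 63 lower and 39 higher at an unadjusted p under 0.05. The 16 were 36 without either 2-cell library, 2 or 1 without a 4-cell library (replicate 1 or 2) and 3 or 2 without an 8-cell library (replicate 1 or 2).
In the remaining comparisons between oocyte and blastocyst the calls were few. From oocyte to 1-cell 6 ratios rose (1.12%), beside 0.109% of all, and 0 fell, beside 0.0818% of all, with 64 and 16 at an unadjusted p under 0.05. These 6 were 13 without oocyte replicate 1, 2 (1 higher, 1 lower) without oocyte replicate 2 and 0 without any 1-cell, 4-cell or 8-cell library. From 2-cell to 4-cell 0 rose, beside 0.0636%, and 2 fell, beside 0.136%, with 50 and 62 at an unadjusted p under 0.05. From 8-cell to blastocyst 0 rose, beside 0.0909%, and 2 fell, beside 0.155%, with 13 and 60 at an unadjusted p under 0.05. Without 2-cell replicate 2 the first of these pairs of counts summed to 15, and it was 0 without any library of the oocyte, 1-cell, 4-cell, 8-cell or blastocyst stages. The second was 4 without either 2-cell library, 1 without any 1-cell or 4-cell library or blastocyst replicate 1, and 0 without either 8-cell library or blastocyst replicate 2.

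From 2-cell to 4-cell 14 members rose (1.21%), beside 1.46% of all transcripts, and 26 fell (2.24%), beside 1.17% of all. TCONS_00008229 (chr16:43768278-43771183, minus strand), antisense in intron 1 of Drd3, the D3 dopamine receptor, had 0.392 and 0.326 TPM at the 2-cell, 47.9 and 35.9 TPM at the 4-cell and 56.1 and 47.2 TPM at the 8-cell stage, a rise of 4.97 ± 0.83 (limma adjusted p = 0.02). Sense TCONS_00005791 in intron 1 of the zinc finger gene Zfp367 was listed at 0 in both 2-cell libraries and at 101 and 76.4 TPM in the 4-cell libraries (limma adjusted p = 0.037). The Robo1 member fell by 5.45 ± 1.04, from 219 and 53.7 to 0 and 5.25 TPM (TCONS_00008299; limma adjusted p = 0.0271). Here 1 library moved the count of 40 strongly: it was 116 without 2-cell replicate 1, 137 (94 higher, 43 lower) without 2-cell replicate 2, 7 or 8 without a 1-cell library (replicate 1 or 2), 1 or 0 without a 4-cell library (replicate 1 or 2) and 8 without either 8-cell library. Quantile normalization gave 34 higher and 82 lower.

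From 4-cell to 8-cell 98 members fell (8.44%), beside 2.44% of all transcripts, and 6 rose (0.517%), beside 0.681% of all. The median difference was -0.51 over members and -0.39 over all. The fall took in 50 of 492 sense (10.2%), 48 of 669 antisense (7.17%) and 26 of 169 spliced members (15.4%), beside 8.02% of intergenic and 0.743% of exactly annotated transcripts. Quantile normalization gave 21 higher and 93 lower. There were 0 calls without any 4-cell or 8-cell library and 175 without either 2-cell library, while a fit on the 4 libraries gave 220 and a spread weighted by stage 369 (70 higher, 299 lower).
Among the 6 that rose, antisense TCONS_00020614 in intron 6 of Tbx20, a T-box factor of the heart, had 0.807 and 1.27 TPM at the 4-cell and 34.1 and 17.3 TPM at the 8-cell stage, a rise of 3.64 ± 0.88 (limma adjusted p = 0.0435), with the host at 1.54 and 1.41 and then 14.3 and 4.02 TPM (limma adjusted p = 0.317). Sense TCONS_00011044 in intron 1 of the formin gene Fmnl2 was at 0 in both 4-cell libraries and at 11.7 and 5.29 TPM in the 8-cell libraries (limma adjusted p = 0.0102).

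**Figure D5:**
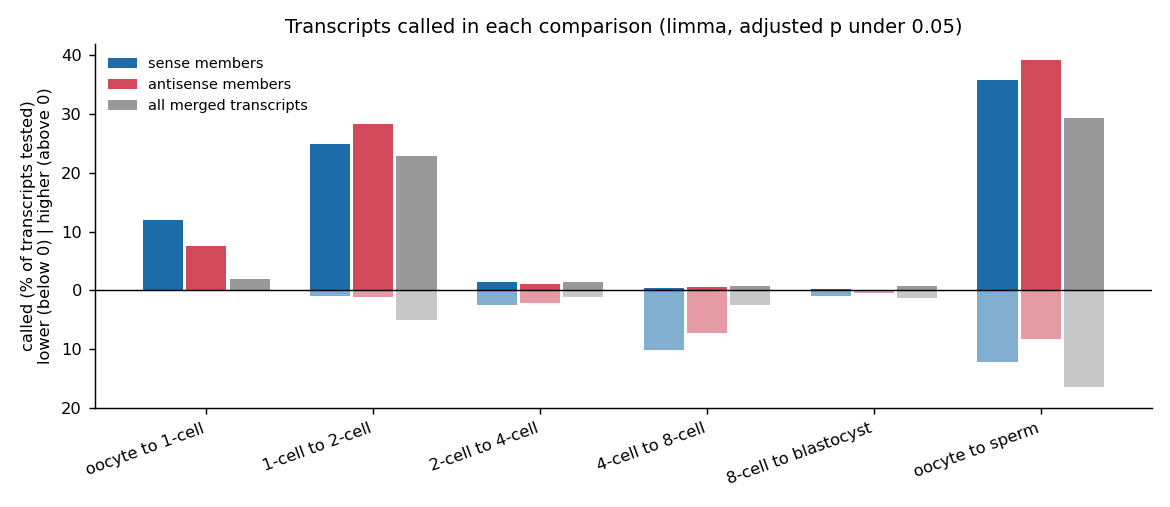
Share of the transcripts tested that were called by limma (adjusted p under 0.05), in % and by comparison, for sense members, antisense members and all merged transcripts. Bars above 0 are higher and paler bars below 0 are lower in the second stage. From oocyte to 1-cell 12.0% of sense and 7.62% of antisense members rose, beside 1.92% of all.

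From 8-cell to blastocyst 1 member rose (0.0861%), beside 0.83% of all transcripts, and 8 fell (0.689%), beside 1.28% of all. The one that rose was sense TCONS_00010842 (chr2:10470819-10471159, plus strand) in intron 10 of Sfmbt2, an imprinted Polycomb gene of the placenta whose intron carries a large microRNA cluster. It had 0 and 1.84 TPM at the 8-cell stage and 32.9 and 9.26 TPM in blastocysts, a rise of 3.47 ± 0.66 (limma adjusted p = 0.0215), and was also at 2.37 and 7.93 TPM in sperm. Sfmbt2 itself had 3.63 and 2.49 and then 22.9 and 4.35 TPM (limma adjusted p = 0.363). The spliced antisense TCONS_00016758 in intron 1 of Nod1, a sensor of bacterial peptidoglycan, had 91.4 and 96.8 TPM at the 4-cell, 9.93 and 11.3 TPM at the 8-cell stage and 0.156 and 0 TPM in blastocysts, and fell by 3.43 ± 0.59 (limma adjusted p = 0.0135). The count of 9 was 54 without either 2-cell library, 18 without blastocyst replicate 1, 1 without blastocyst replicate 2 or 8-cell replicate 1, 0 without 8-cell replicate 2, 2 without either 1-cell library and 3 without either 4-cell library.

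Many intronic transcripts were higher in sperm than in oocytes. Between oocytes and sperm, fitted to all 14 libraries (21568 transcripts, 1226 of them members), 462 members were higher in sperm (37.7%), beside 29.3% of all transcripts, and 122 were lower (9.95%), beside 16.5% of all. The median difference was 1.11 over members and 0.56 over all. The share higher in sperm was 35.8% of sense, 39.1% of antisense, 40.8% of single-exon and 20.1% of spliced members. Exactly annotated transcripts had 36.1% and intergenic ones 32.3%. Long reads of the sperm pool, which came from the same cDNA batches as the short reads, supported 221 of the 462. The 462 were not limited to sperm, since they summed to 3.32% and 5.07% of the TPM there, 0.777% and 1.56% at the 2-cell, 1.16% and 1.30% at the 4-cell and 1.08% and 0.657% at the 8-cell stage. Their high sums in sperm follow from how the set was chosen. Without sperm replicate 2, 265 were higher and 97 lower, in a fit on the 4 libraries 228 and 25, and under quantile normalization 412 and 185.

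Gm38958 was among the strongest of these. Its transcript TCONS_00003873 (chr11:95823957-95824411, minus strand), which began at the RefSeq start printed above in intron 5 of Zfp652, a zinc finger repressor, had 1618 and 600.3 TPM in sperm and 0 in both oocyte and both 1-cell libraries (limma adjusted p = 1.82e-06), and 9.62 TPM in 2-cell replicate 1 was its highest level elsewhere. The nearest annotated exon lay 87 bases from this transcript. Antisense TCONS_00007124, 136 bases in intron 5 of Lima1, an actin-binding protein, had 610.1 and 1067 TPM in sperm against 0 and 2.09 TPM in oocytes, 8.84 ± 0.81 higher on the log2 scale (limma adjusted p = 3.42e-06), with the host at 8.11 and 5.00 against 1.74 and 3.93 TPM and a ratio 7.83 ± 0.66 higher (limma adjusted p = 6.46e-05). In the other direction TCONS_00001380 in Efcab2 differed by -7.16 ± 0.86 in sperm (limma adjusted p = 2.51e-05), where Efcab2 itself was 4.85 ± 0.56 higher (limma adjusted p = 3.93e-06), and TCONS_00006477 in Gm45645, annotated as an antisense RNA gene within Erc2, differed by -7.00 ± 0.95, at 0.445 and 0 against 439 and 53.1 TPM (limma adjusted p = 6.65e-05). The ratio to the host was higher in sperm for 207 of 586 members (35.3%), beside 16.5% of all, and lower for 55 (9.39%), beside 15% of all. The limit given above on the ratio shares over all transcripts holds here too.

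At the other 3 printed starts the levels were lower, and 3 of the 6 members had their highest stage mean in sperm. TCONS_00003525 at Gm51896 in Galnt10, a mucin-type glycosyltransferase, had 27.9 and 12.3 TPM in sperm and between 0.225 and 4.20 TPM in the 12 other libraries, and was 3.92 ± 0.61 higher than in oocytes (limma adjusted p = 0.000181). Spliced TCONS_00014663 at Gm35137 in Patj, a scaffold of tight junctions, had 31.1 and 1.94 TPM in sperm, 0 in the oocyte and 1-cell libraries, 2.35 and 24.8 TPM at the 2-cell and 13.3 and 15.2 TPM at the 4-cell stage, while Patj itself had 34.6 and 93.7 TPM in oocytes and 3.51 and 24.9 TPM at the 2-cell stage. The ratio to Patj changed from 1-cell to 2-cell (limma adjusted p = 0.00134). At Gm35676 in Hydin, a protein of motile cilia, the single-exon TCONS_00020420 had 5.64 and 11.52 TPM in sperm, and the spliced TCONS_00020419 had 47.7 TPM in 2-cell replicate 2 against 0.627 TPM in replicate 1.

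In the long-intron neuronal and adhesion genes, 23 of the 32 members were tested from oocyte to blastocyst. From 1-cell to 2-cell 9 rose and 1 fell, beside 22.9% and 5.11% of all transcripts, with a median difference of 1.46 beside 0.75 over all transcripts. From 4-cell to 8-cell 0 rose, beside 0.681% of all, and 1 fell, beside 2.44% of all. In sperm 11 of 24 were higher than in oocytes, beside 29.3% of all transcripts, with a median of 1.31 beside 0.56. Antisense TCONS_00015738 in Auts2, a regulator of neuronal development, had 0.228 and 0 TPM at the 1-cell and 19.7 and 38.4 TPM at the 2-cell stage, a rise of 4.69 (limma adjusted p = 0.000972). Sense TCONS_00021173 in Cntn5, a contactin, had 0.0963 and 0.0388 and then 4.92 and 41.3 TPM (limma adjusted p = 0.00296), and 0.440 and 0.515 TPM at the 8-cell stage. In Erbb4, a neuregulin receptor, antisense TCONS_00000222 had 5.74 and 405 TPM in sperm, and in Dpp10 antisense TCONS_00000421 had 11.4 and 322 TPM, so that sperm replicate 2 set their level. Of the chromatin and maternal lists, 2 and 1 members were tested between oocytes and sperm. These members, in Kdm5b, Chd7 and Cnot6l, were all higher in sperm, beside 29.3% of all transcripts. The member in Chd7 had 4.59 and 2.16 TPM against 0 in both oocyte libraries (limma adjusted p = 0.0347). That in Cnot6l had 15.5 and 4.44 TPM against 0 in both (limma adjusted p = 0.00186).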

How the data were processed

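Transcript models from PacBio long reads of 7 pools and TPM of 14 Smart-seq2 short-read libraries were used. Per the study's methods the authors aligned long reads to mm10 with GMAP, clustered them with Iso-seq3, collapsed them with cDNA_Cupcake and merged the pools with Cuffmerge, annotated the result with Cuffcompare, and estimated the deposited TPM values with salmon. The study lists the total reads of each short-read library, by which replicate 1 of the 1-cell and 2-cell stages was sequenced less deeply than replicate 2. TPM keeps no count per transcript, so no counting interval was given, and the part of depth in the results was not tested. The study names GENCODE vM20, and vM21 was used here. The members, gene lists and tests were chosen with earlier results of these data known. No label says that the 2 libraries of a stage came from separate animals, so p-values measure the spread between batches of pooled cells. The 8-cell libraries were numbered by title, which differs from the file numbering.

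Calls came from limma 3.58.1 (R 4.3.3; lmFit, contrasts.fit and eBayes with trend) on log2(TPM + 1), for transcripts with at least 1 TPM in 2 or more libraries, with Benjamini-Hochberg adjustment over all transcripts and a threshold of 0.05. The 12 oocyte to blastocyst libraries shared 1 fit, and sperm was added for the sperm comparison. The ratio test used the log2(TPM + 1) of a transcript minus that of the other transcripts of its gene or host. The code was tested on simulated data. Named members were the 2 largest rises and falls per comparison among called members whose stages did not overlap, the 5 sense and 5 antisense members with the highest stage mean, the 3 largest rises and falls of the 1-cell to 2-cell ratio, and the spliced members with the most exons. Members at RefSeq starts and in listed genes were named in addition. Alternatives were the pseudocount, the TPM minimum, quantile normalization, a replicate block, fits on 4 libraries, a spread weighted by stage, other member definitions and each library left out. Tables used Python 3.11.15 with pandas 2.3.3, numpy 2.4.6 and scipy 1.17.1, and figures matplotlib 3.10.9.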

Additional observations from a re-analysis of the deposited data

How the results depend on the processing

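Counts of called members are given in the order oocyte to 1-cell, 1-cell to 2-cell, 2-cell to 4-cell, 4-cell to 8-cell, 8-cell to blastocyst and oocyte to sperm, where the values as reported were 110, 323, 40, 104, 9 and 584 for transcripts and 6, 117, 2, 16, 2 and 262 for ratios to the host. In fits on the 4 libraries of each comparison they were 0, 0, 0, 220, 0 and 253, and 0, 1, 0, 69, 0 and 148 for the ratios. Spliced members alone, a smaller set, gave 22, 30, 2, 26, 2 and 79. A fit that gave each stage a weight for its own spread, added once the data had been seen, changed 4 counts of each kind: 1-cell to 2-cell gave 130, 2-cell to 4-cell 0, 4-cell to 8-cell 369 and 8-cell to blastocyst 28, and the ratios 46, 0, 107 and 8. A pseudocount of 0.1 gave 12 (2-cell to 4-cell) and 17 (8-cell to blastocyst), with ratios at 0 for oocyte to 1-cell and for 2-cell to 4-cell. Quantile normalization gave 116 and 32 for 2-cell to 4-cell and 8-cell to blastocyst. A minimum of 5 TPM gave 10 ratios for 4-cell to 8-cell and 1 for 8-cell to blastocyst. Members at least 1000 bases from an exon gave 5 for 8-cell to blastocyst. The cause of these shifts was not tested.

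Libraries with the same number were not treated as paired. Over 15 pairs of stages the correlation of their deviations ran from -0.486 to 0.415, and 3 were over 0.1. These values do not settle whether such libraries share a batch. A replicate block gave 15 for 2-cell to 4-cell and 3 for 8-cell to blastocyst, with ratios at 0 and 1. The other counts stayed within 1.5 times.

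With each library left out in turn, where the lone sample of its stage is assumed to vary like the other groups, the transcript counts ran from 0 to 130, 146 to 520, 0 to 137, 0 to 175, 0 to 54 and 362 to 636, and the ratio counts from 0 to 13, 37 to 127, 0 to 15, 1 to 36, 0 to 4 and 202 to 279. For 27 tests of named members under 525 settings, 411 kept their call, 114 lost it and 0 reversed. Which direction had more calls did turn for some counts: 2-cell to 4-cell went from 14 higher and 26 lower to 94 and 43 without 2-cell replicate 2, and to 6 and 2 without either 8-cell library, and oocyte to sperm from 462 and 122 to 37 and 42 for spliced members alone. Other definitions gave 1157 members (protein-coding hosts), 961 (at least 1000 bases from an exon) and 1429 (overlap with exons of the same strand only). The planned checks of A-rich 3′ ends, polyadenylation signals and splice sites were not run. TPM sets no limit of detection, so a value listed at 0 is no proof of absence.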
